A study of Rattus norvegicus with 64 samples.

Results

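The genes described here are the Wnt ligands, their receptors and their modulators in the rat entorhinal cortex, the cortical gateway to the hippocampus. The 46 members were taken by gene symbol from the 17260 genes in the count tables. They comprised 18 Wnt ligands, 9 Frizzled receptors, 5 co-receptors (Lrp5, Lrp6, Ror1, Ror2 and Ryk), 9 secreted modulators (Dkk1 to Dkk4, Sfrp1, Sfrp2, Sfrp4, Sfrp5 and Wif1), 2 cytoplasmic proteins (Axin2 and Ctnnb1) and 3 DNA-binding partners of beta-catenin (Lef1, Tcf7l1 and Tcf7l2). Ribosome-depleted, stranded total RNA was sequenced from 64 samples of Long Evans rats, 32 from the medial entorhinal cortex (MEC) and 32 from the lateral entorhinal cortex (LEC). Each region was dissected into layer II (LII) and the layers below it (LDeep) at postnatal days 2, 9, 23 and 45 (P2, P9, P23 and P45), with 5, 4, 3 and 4 samples per region, layer and age. The labels name no genotype, sex or drug treatment, and LDeep is a mixture of layers III to VI as the methods define it for the MEC. P-values measure the spread between samples labelled as replicates, and the labels do not say which samples came from the same animal.

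Wnt proteins are lipid-modified secreted signals that bind Frizzled receptors on nearby cells. When Lrp5 or Lrp6 joins the complex, beta-catenin (encoded by Ctnnb1) escapes destruction, enters the nucleus and works with Lef1 and the Tcf proteins at target genes, among them the feedback inhibitor Axin2, whereas Ror1, Ror2 and Ryk carry ligand signals that need not use beta-catenin. Sfrp proteins and Wif1 bind the ligands outside the cell and Dkk1, Dkk2 and Dkk4 bind Lrp5 and Lrp6. In the developing brain the pathway is known for its roles in precursor division, axon and synapse formation and the growth of brain vessels.

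The libraries held 3894334 to 11439143 counts (median 7569158), so that 1 count was worth 0.0874 to 0.257 CPM (counts scaled by library size), and the members held 0.126% to 0.189% of all counts. The layer labels were checked against marker genes. All 4 tested layer II markers were higher in LII and all 8 deep-layer markers were lower. Libraries whose marker genes stood apart from those of their groups were found at P2 in the MEC. The summed level of 16 meningeal fibroblast markers was 54.9 CPM in the library labelled MEC LII P2 replicate 1 and 75.5 CPM in MEC LII P2 replicate 3, against 931 to 1676 CPM in the other 3 MEC LII P2 libraries. In the library labelled MEC LDeep P2 replicate 1 that sum was 1322 CPM, against 77.8 to 114 CPM in the other 4 of its group, and its deep-layer markers (559 CPM) were the lowest of the 32 LDeep samples. The library labelled LEC LII P9 replicate 2 held 698 CPM of oligodendrocyte markers, against 42.7 to 50.03 CPM in its group. Counts of calls, and the members whose call changed, are also given without these 4 libraries. They were picked by marker genes, and other libraries far from their groups were kept. The chi-square per degree of freedom between replicates was 59.1 to 73.6 for LEC LDeep P45 replicate 4. It was 45.9 to 67.4 for MEC LDeep P2 replicate 4, and the lowest of all pairs was 3.08. The tissue holds many cell types, and in such bulk samples fewer cells of a type and less RNA per cell cannot be told apart.

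Levels were compared between members per kilobase of exon, as the mean over 64 samples. Ctnnb1 stood highest at 301 ± 58.2 CPM per kb (SD, n = 64). Among the ligands, Wnt7b (44.4 ± 18.3) and Wnt7a (14.8 ± 4.56) had the highest means, followed by Wnt4 (8.26 ± 2.62) and Wnt16 (5.68 ± 4.52), which differed by less than the SD of Wnt16. Fzd3 led the Frizzleds at 30.7 ± 8.0 CPM per kb, ahead of Fzd1, Fzd2 and Fzd9, whose means of 9.77, 7.62 and 7.55 lay closer together than the largest of their SDs of 5.67, 2.98 and 2.56. Ryk (20.8 ± 5.45) and Lrp6 (16.9 ± 3.12) were the most abundant co-receptors. Dkk3 (45.9 ± 32.4) and Wif1 (18.5 ± 11.2) had the highest means among the secreted modulators.

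A filter on low counts left 38 of the 46 members for testing. The 8 others were Wnt1 (13 counts over the 64 samples), Wnt3a (7), Wnt8a (12), Wnt8b (38), Fzd8 (98), Sfrp5 (24), Dkk4 (3) and Dkk1 (0). A total of 0 counts for Dkk1 over these libraries allows at most 3 counts as a counting floor. The annotation used for counting placed 2 copies each of Fzd8 and Dkk1 on their chromosomes, and reads that match copies equally could have been lost, so the levels of both are uncertain. Wnt8b, a ligand used in the forebrain midline, had a count in 18 of 64 samples and reached no more than 0.714 CPM.

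The comparison of layers asked which members differed between LII and LDeep over both regions and 4 ages. Of the 38 tested members, 26 passed an edgeR quasi-likelihood test at a Benjamini-Hochberg (BH) adjusted p of 0.05, 23 of them higher in LII and 3 lower, and the same test called 54% of all 12521 genes. The genes called higher in LII were 23.5% of all genes and those called lower 30.5%. The median log2 fold change (LFC, LII over LDeep) of the members was 0.49, beside a median of -0.05 over all genes. Without the 4 libraries the members called were 27, with 24 higher and 3 lower: Fzd9 (LFC 0.16, adjusted p = 0.0412) and Wnt7b (LFC 0.15, adjusted p = 0.0164) were gained and Tcf7l2 was lost. With voom and quantile scaling 22 members were higher and 8 lower, so the split depended on the scaling. The fold changes of layer and age are drawn for every tested member in the forest plot.

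**Figure D1:**
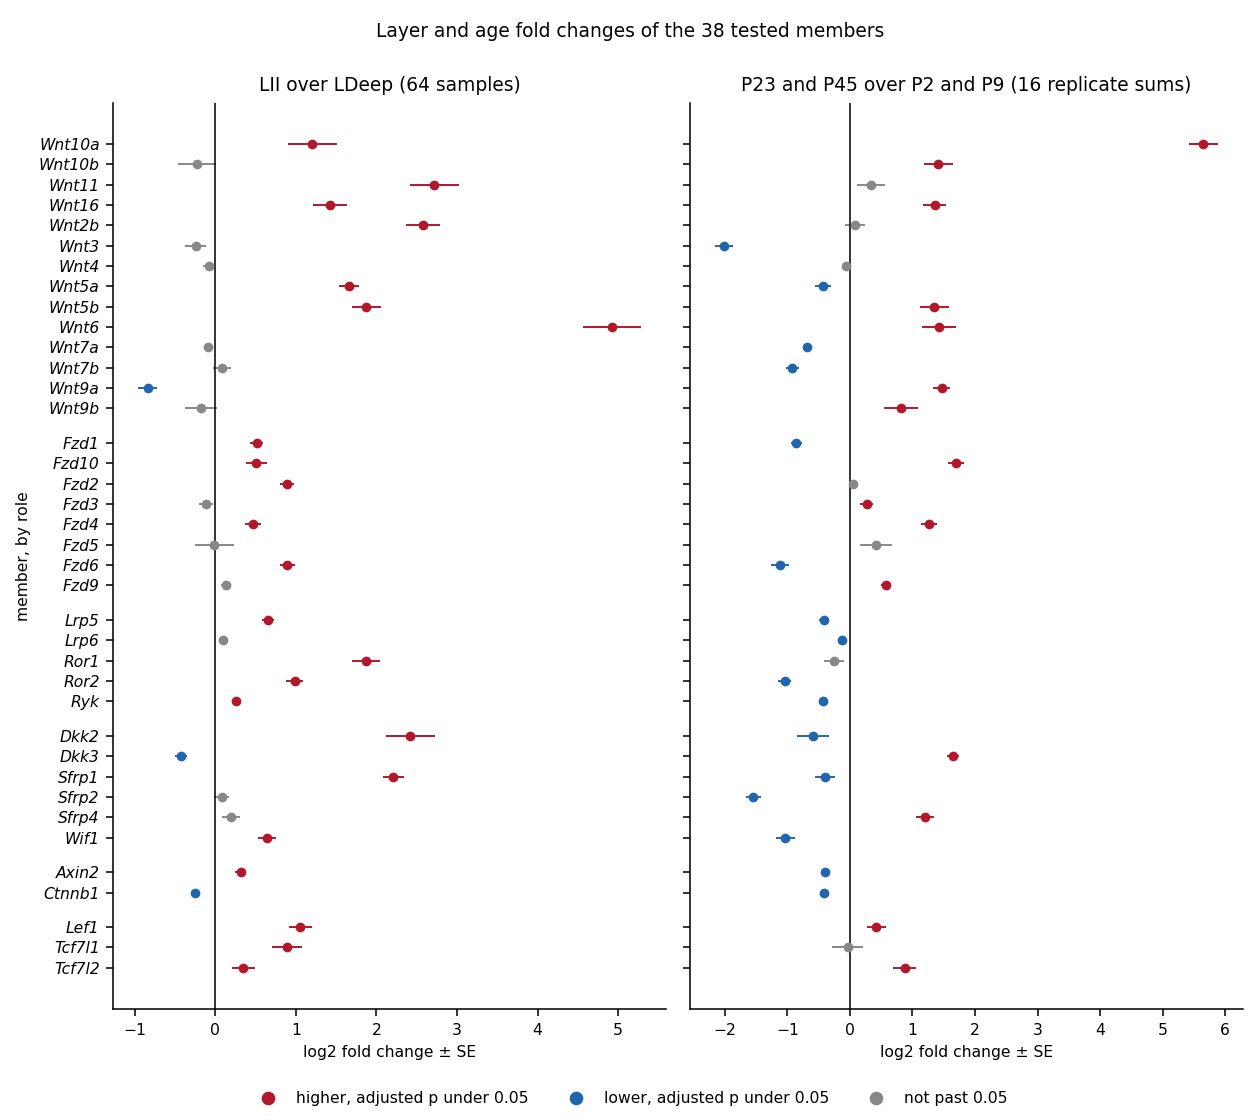
Log2 fold changes with their standard errors for the 38 tested members, in rows by role, for LII over LDeep (left, 64 samples) and for P23 and P45 over P2 and P9 (right, 16 replicate sums). Red and blue points passed an adjusted p of 0.05 in edgeR (higher and lower), grey points did not. On the left 23 points are red and 3 blue, and on the right 15 are red and 16 blue, with Wnt6 the largest layer difference (4.93) and Wnt10a the largest age difference (5.65).

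Among the ligands, 7 of the 14 tested were higher in LII and 1 was lower. Wnt6 lies on chromosome 9 (rn6, chr9:82033543-82047172, plus strand) beside Wnt10a. Its level was 0.3 to 44.5 CPM in the 32 LII samples (median 8.53) and 0 to 4.57 CPM in the 32 LDeep samples (median 0.135). Apart from MEC P2 replicates 1 and 3, the lowest LII value was 2.57 CPM and the highest LDeep value 1.92 CPM, so that the layers overlapped only through those libraries. The LII libraries and LDeep replicate 1 among them had been picked by meningeal markers, with which Wnt6 moved there. Leaving them out is thus no test of how far the layers separate. The LFC was 4.93 (SE 0.36, edgeR adjusted p = 6.28e-17), LII was higher in 31 of 32 pairs with the same region, age and replicate number, and without the 4 libraries the LFC was 5.34.

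Wnt11, a ligand of beta-catenin-independent signalling (chr1:163797660-163813756), ranged from 0.284 to 3.75 CPM in LII (median 1.92) and from 0 to 3.14 CPM in LDeep (median 0.226), with an LFC of 2.72 (SE 0.31, edgeR adjusted p = 8.08e-11). Wnt2b (chr2:207440886-207455258) was at 0.5 to 5.69 CPM in LII (median 3.17) and 0 to 3.0 CPM in LDeep (median 0.508), an LFC of 2.58 (SE 0.21, adjusted p = 2.15e-15). Both were higher in LII in 31 of 32 pairs. Wnt5b (chr4:151500962-151516894) was at 0.331 to 5.47 CPM in LII (median 2.0) and 0 to 1.35 CPM in LDeep (median 0.65), with an LFC of 1.87 (SE 0.18, adjusted p = 6.4e-13). The ranges of the layers overlapped for these 3 ligands. The highest LDeep values of Wnt11 and Wnt2b belonged to the library labelled MEC LDeep P2 replicate 1. The other LDeep samples at P2 held at most 0.97 CPM of Wnt2b.

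Wnt5a, the best-known ligand of the Ror receptors, Wnt16 and Wnt10a were also higher in LII, with LFCs of 1.66, 1.42 and 1.2. Wnt5a was the only tested member that was higher in LII in 32 of 32 pairs. For Wnt10a LII was higher in 20 of 32 pairs, 7 in the MEC and 13 in the LEC. Its layer contrast did not pass in the MEC (LFC 0.82, edgeR adjusted p = 0.136). It also changed with age, by -2.63 from the younger to the older ages. The call for Wnt10a was lost with voom and quantile scaling (LFC 0.37, adjusted p = 0.134) and without P2 replicate 2 (LFC 1.07, adjusted p = 1), which leaves MEC LII and LEC LDeep at P2 with 0 counts of it. Wnt9a (chr10:45659056-45686089) went the other way. It was at 1.42 to 19.5 CPM in LII (median 4.43) and 1.5 to 23.4 CPM in LDeep (median 10.4), with an LFC of -0.84 (SE 0.12, edgeR adjusted p = 2.49e-08) and LII higher in 5 of 32 pairs. The remaining tested ligands, Wnt3, Wnt4, Wnt7a, Wnt7b, Wnt9b and Wnt10b, had LFCs of -0.24 to 0.08 and did not pass. With voom and quantile scaling Wnt10b (LFC -0.77), Wnt9b (-0.73), Wnt3 (-0.72) and Wnt4 (-0.285) were called lower in LII (adjusted p of 0.000103 to 0.00456). Wnt9b also passed in the MEC in edgeR (LFC -0.68, adjusted p = 0.0488).

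**Figure D2:**
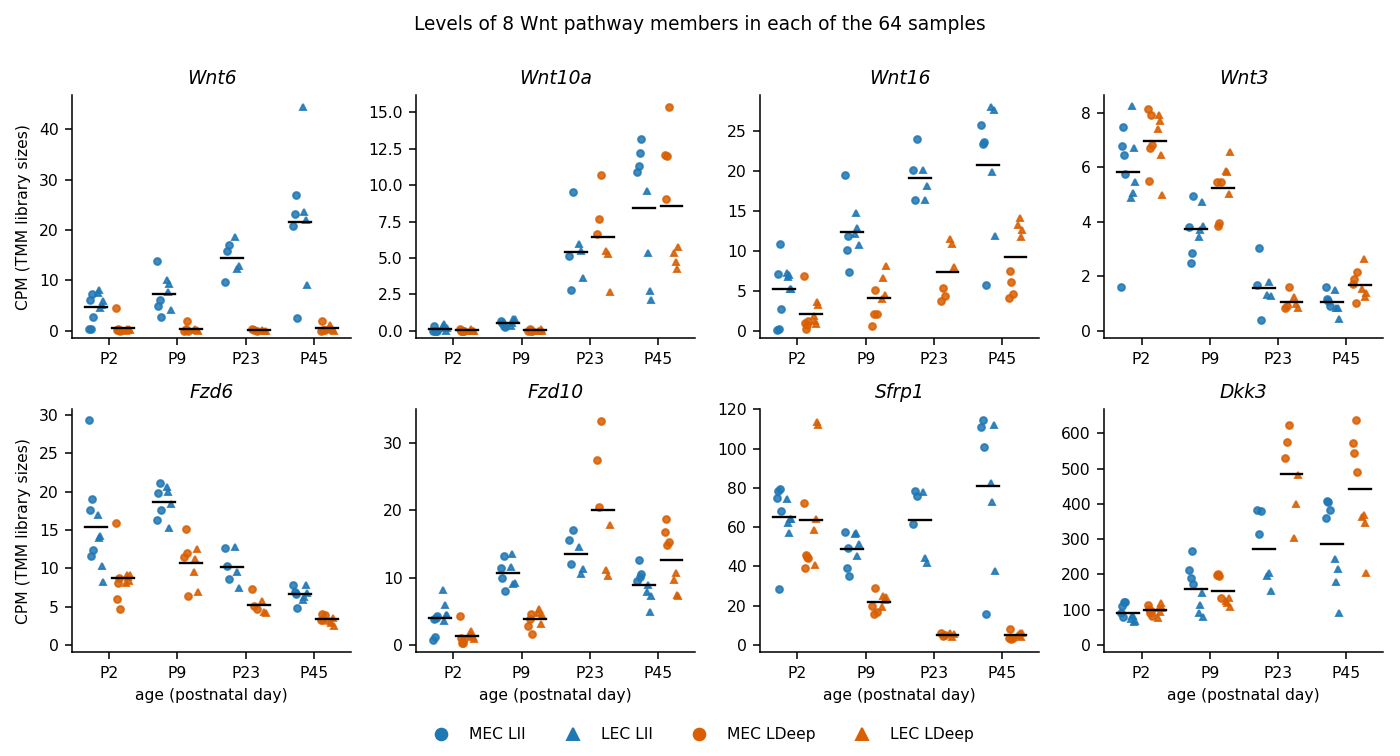
CPM of 8 members in each of the 64 samples, by age and layer (blue LII, orange LDeep) and region (circles MEC, triangles LEC), with a black bar at the mean of each age and layer. Wnt6 is near 0 in LDeep at each age apart from 1 MEC library at 4.57 CPM, Wnt10a is below 1 CPM at P2 and P9 in every sample, and the median of Sfrp1 in LDeep goes from 52.3 CPM at P2 to 4.56 CPM at P45.

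Of the 8 tested Frizzled receptors, 5 were higher in LII and none was lower. Fzd6 was at 4.84 to 29.4 CPM in LII (median 12.5) and 2.52 to 15.98 CPM in LDeep (median 6.62), an LFC of 0.89 (SE 0.1, edgeR adjusted p = 1.48e-11) with LII higher in 31 of 32 pairs. Fzd2 was at 9.57 to 29.3 CPM in LII (median 18.1) and 5.97 to 19.3 CPM in LDeep (median 9.76), with an LFC of 0.89 (SE 0.08, adjusted p = 2.54e-13). Both sets of samples overlapped between layers. Fzd1 had medians of 39.3 CPM in LII and 24.7 CPM in LDeep (LFC 0.51, SE 0.08, adjusted p = 2.27e-07), and Fzd10 medians of 9.08 and 4.64 CPM (LFC 0.51, SE 0.13, adjusted p = 0.00103). LII was higher in 25 of 32 pairs for Fzd1 but in 19 of 32 for Fzd10, 8 of 16 in the MEC and 11 of 16 in the LEC, and the layer contrast of Fzd10 did not pass in the MEC (LFC 0.32, adjusted p = 0.174). The LFC of Fzd10 averages over ages that differed. Its median was higher in LDeep at P23 and P45, as given below. Fzd4, the receptor for norrin in vessels, passed with an LFC of 0.46. Fzd3, Fzd5 and Fzd9 had LFCs of -0.12, -0.01 and 0.13 and did not pass.

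The co-receptors followed the same direction in 4 of 5 cases. Ror1 (chr5:118892874-119239528) was at 1.71 to 10.2 CPM in LII (median 5.32) and 0.229 to 11.0 CPM in LDeep (median 1.32), an LFC of 1.87 (SE 0.17, edgeR adjusted p = 1.74e-13). Its highest LDeep value belonged to the library labelled MEC LDeep P2 replicate 1, and without the 4 libraries its LFC was 2.03. Ror2 had medians of 7.32 CPM in LII and 3.69 CPM in LDeep (LFC 0.98, SE 0.11, adjusted p = 2.54e-11). Lrp5 had medians of 26.0 and 16.2 CPM (LFC 0.65, SE 0.08, adjusted p = 1.77e-10) and Ryk of 37.6 and 30.4 CPM (LFC 0.26, SE 0.04, adjusted p = 3.49e-07). Lrp6, the relative of Lrp5, had an LFC of 0.09 (SE 0.04, adjusted p = 0.0636) and did not pass in edgeR. DESeq2 called it (LFC 0.1, adjusted p = 0.0342), as did voom with quantile scaling (LFC 0.15, adjusted p = 0.00107). It was also called with RLE size factors (adjusted p = 0.0384) and with no filter (adjusted p = 0.0433), but not without the 4 libraries.

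The secreted modulators held both directions, 3 of 6 tested members being higher in LII and 1 lower. Dkk2, an antagonist of Lrp5 and Lrp6 (chr2:237148918-237240883), was at 0 to 9.43 CPM in LII (median 3.03) and 0 to 7.13 CPM in LDeep (median 0.425). Its LFC was 2.42 (SE 0.3, edgeR adjusted p = 1.34e-09), and 2.85 without the 4 libraries. Sfrp1, which sequesters ligands (chr16:73372007-73410777), was at 15.6 to 114 CPM in LII (median 63.1) and 3.1 to 113 CPM in LDeep (median 17.9), an LFC of 2.21 (SE 0.13, adjusted p = 3.11e-20). Wif1 had medians of 40.2 CPM in LII and 24.9 CPM in LDeep (LFC 0.64, SE 0.11, adjusted p = 3.55e-06). Dkk3, a divergent family member that does not bind Lrp6, was lower in LII, with medians of 163 and 198 CPM (LFC -0.43, SE 0.07, adjusted p = 6.32e-07) and LII higher in 7 of 32 pairs. Its layer contrast did not pass in the MEC (LFC -0.22, adjusted p = 0.0605), where LII was higher in 6 pairs. In the LEC the LFC was -0.63 (adjusted p = 5.43e-07) and LII was higher in 1 pair. Sfrp2 and Sfrp4 had LFCs of 0.08 and 0.19 and did not pass, though voom with quantile scaling called Sfrp2 lower (LFC -0.24, adjusted p = 0.0477).

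Within the cell, beta-catenin and its partners did not share a direction. Ctnnb1 was at 439 to 1008 CPM in LII (median 669) and 550 to 1037 CPM in LDeep (median 770). Its LFC was -0.25 (SE 0.03, edgeR adjusted p = 3.11e-09), and LII was higher in 3 of 32 pairs. Axin2 was at 18.8 to 47.9 CPM in LII (median 29.5) and 14.4 to 41.9 CPM in LDeep (median 23.7), an LFC of 0.31 (SE 0.07, adjusted p = 7.38e-05). Lef1 was at 1.89 to 11.4 CPM in LII (median 5.05) and 0.823 to 8.25 CPM in LDeep (median 2.31), an LFC of 1.05 (SE 0.15, adjusted p = 1.87e-08). Tcf7l1, which acts mainly as a repressor, had medians of 1.8 and 0.911 CPM (LFC 0.89, SE 0.18, adjusted p = 5.48e-05). Tcf7l2 was near the threshold with an LFC of 0.35 (SE 0.15, adjusted p = 0.0412), which turned to -0.003 with voom and quantile scaling (adjusted p = 0.985). It was lost without the 4 libraries (LFC 0.33, adjusted p = 0.0708) and in 9 of the 16 fits that left out 1 replicate number.

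Axin2 is the member whose promoter is a textbook site for Lef1 and Tcf proteins, so its upstream bases are shown. RefSeq promoter windows (GRCr8, 250 bases before to 50 after the start) were found for 33 of the 46 members. The word CTTTGAA, the word CTTTGAT, the word CTTTGTA and the word CTTTGTT, the core letters that these proteins bind, were searched on both strands. They occurred in 5 of the 33 windows (15.2%: Axin2, Wnt3, Wnt8a, Dkk1 and Sfrp5), beside 17.1% of the 33469 windows of all genes. The 250 bases before the Axin2 start (GRCr8, chr10:94398535-94398784, plus strand, 5′ to 3′) hold the words in capitals at bases 19 and 119.
Axin2: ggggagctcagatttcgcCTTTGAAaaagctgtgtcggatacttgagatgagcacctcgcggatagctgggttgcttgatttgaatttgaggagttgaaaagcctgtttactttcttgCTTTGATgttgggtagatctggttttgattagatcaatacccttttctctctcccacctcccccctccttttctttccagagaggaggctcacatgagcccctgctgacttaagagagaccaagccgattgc
Such a match is a description of letters and no evidence of binding in these samples.

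Markers of other cell types moved with the layer difference. Of the 16 meningeal fibroblast markers 15 were higher in LII (median LFC of the list 3.79) and Dcn was lower. Their summed level was 54.9 to 2004 CPM in LII (median 1289) and 44.0 to 1322 CPM in LDeep (median 143). Endothelial markers were higher in LII in 10 of 10 cases, with sums of 226 to 789 CPM against 207 to 514 CPM, mural cell markers in 8 of 8 (120 to 632 against 95.3 to 245 CPM), and astrocyte markers in 6 of 8 (957 to 5206 against 662 to 3209 CPM). Of the 4 testable choroid plexus markers 3 were higher in LII, Kcnj13 by an LFC of 4.88 (SE 0.41, edgeR adjusted p = 6.84e-15), and the 7 listed summed to 3.22 to 49.3 CPM in LII and 0.282 to 12.7 CPM in LDeep. Cycling cell markers were higher in LII in 4 of 5 cases (13.5 to 257 against 10.9 to 259 CPM) and microglia markers in 5 of 8 (57.7 to 431 against 75.8 to 371 CPM). Oligodendrocyte markers were lower in LII in 4 of 8 cases (34.4 to 4818 against 46.2 to 16316 CPM), neuron markers in 3 of 6 (926 to 5233 against 915 to 5394 CPM), and of 5 markers of oligodendrocyte precursors 1 was higher and 3 were lower. The part of these cells in the layer differences was not tested.

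The MEC samples at P2 show the meningeal markers and several members side by side. In replicates 1 to 5 of MEC LII at P2, Wnt6 was at 0.3, 6.05, 0.38, 7.36 and 2.83 CPM, while the meningeal sums were 54.9, 1579, 75.5, 1676 and 931 CPM. In replicates 1 to 5 of MEC LDeep at P2, Wnt6 was at 4.57, 0.13, 0.35, 0.23 and 0 CPM, and the meningeal sums were 1322, 114, 77.8, 97.4 and 102 CPM. The low LII libraries and the high LDeep library of Wnt6 were thus those of the meningeal markers, and the same libraries stood apart for Dkk2 (0 and 0.47 CPM in LII replicates 1 and 3, 7.13 CPM in LDeep replicate 1) and Ror1 (1.8 and 1.71 CPM, and 11.0 CPM). For Wnt6, Dkk2 and Ror1 the larger layer LFCs without the libraries that stood apart are therefore no separate test. Sfrp1 was at 74.9, 78.3, 28.5, 79.3 and 68.4 CPM in the 5 MEC LII libraries at P2 and at 72.2, 39.2, 45.7, 44.9 and 44.4 CPM in the 5 MEC LDeep libraries. It was thus low in LII replicate 3 and high in LDeep replicate 1, as the meningeal markers were, but not low in LII replicate 1. Other members called higher in LII were mixed. The 5 MEC LII libraries at P2 held 9512750, 5274706, 10515907, 6251022 and 10441443 counts. Wnt16 had 1, 40, 2, 72 and 29 counts in them, lowest in replicates 1 and 3. Wnt5a had 73, 33, 103, 49 and 52 counts and Wnt5b 38, 3, 9, 5 and 16, with neither lowest in replicate 1 or 3.

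**Figure D3:**
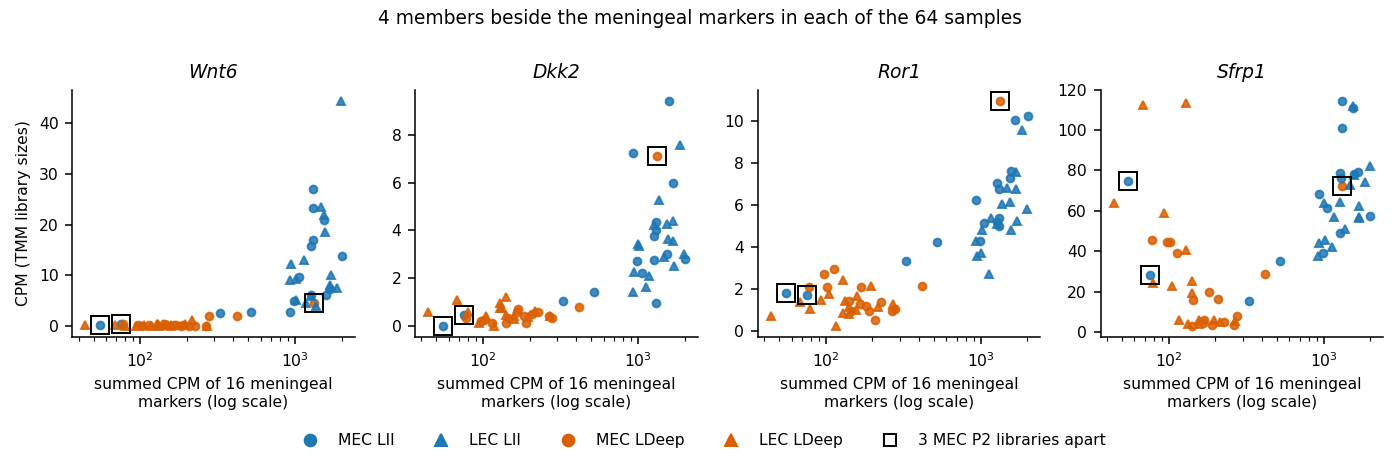
CPM of Wnt6, Dkk2, Ror1 and Sfrp1 (vertical axes) against the summed CPM of 16 meningeal fibroblast markers (horizontal log axes) in each of the 64 samples, with colours for layers, symbols for regions and squares around the 3 MEC P2 libraries that stood apart. Wnt6, Dkk2 and Ror1 are low where the sum is low, also in the squared libraries, whereas Sfrp1 reaches 113 CPM in LDeep samples with low sums.

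The layer comparison was also made in each region. In the MEC 26 of the 38 members passed (23 higher in LII, 3 lower), where 40.8% of all genes did. In the LEC 26 passed (22 higher, 4 lower), where 38.6% of all genes did. Tcf7l2, Fzd9, Wnt9b and Sfrp4 passed in the MEC alone, and Fzd10, Wnt10a, Wnt7a and Dkk3 in the LEC alone. Without the 4 libraries 29 passed in the MEC and 25 in the LEC. The 3 gained in the MEC were Fzd10 (LFC 0.73, adjusted p = 1.74e-05), Wnt10a (LFC 1.36, adjusted p = 0.0331) and Wnt7b (LFC 0.27, adjusted p = 0.00408), and Wnt7a was lost in the LEC (LFC -0.16, adjusted p = 0.0569). The layer LFC of Wnt6 was 4.15 (SE 0.48) in the MEC and 5.7 (SE 0.54) in the LEC, and that of Sfrp1 was 2.38 (SE 0.19) and 2.04 (SE 0.19). A test of the difference between regions called 0 of 38 members in edgeR, beside 1.25% of all genes. In that test 5 members had an unadjusted p under 0.05, the lowest adjusted p was 0.139 for Dkk3, and DESeq2 and limma voom also called 0 members. Without the 4 libraries the difference passed for Wnt16 (1.26 higher in the MEC, adjusted p = 0.00979).

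The comparison of ages set P23 and P45 against P2 and P9. To keep 4 samples that share an age and a replicate number from counting as separate units, their counts were summed, which gave 16 replicate sums (5, 4, 3 and 4 at the 4 ages in order). Of the 38 tested members 31 passed, 15 higher and 16 lower at the older ages, beside 77.3% of all 13092 genes tested (38.3% higher and 39% lower). The share of members was thus close to that of all genes. The median absolute LFC of the members was 0.75, beside 0.48 over all genes. Without the 4 libraries the counts were 31 called, 15 higher and 16 lower. The heat map of group means shows the 38 members across regions, layers and ages.

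**Figure D4:**
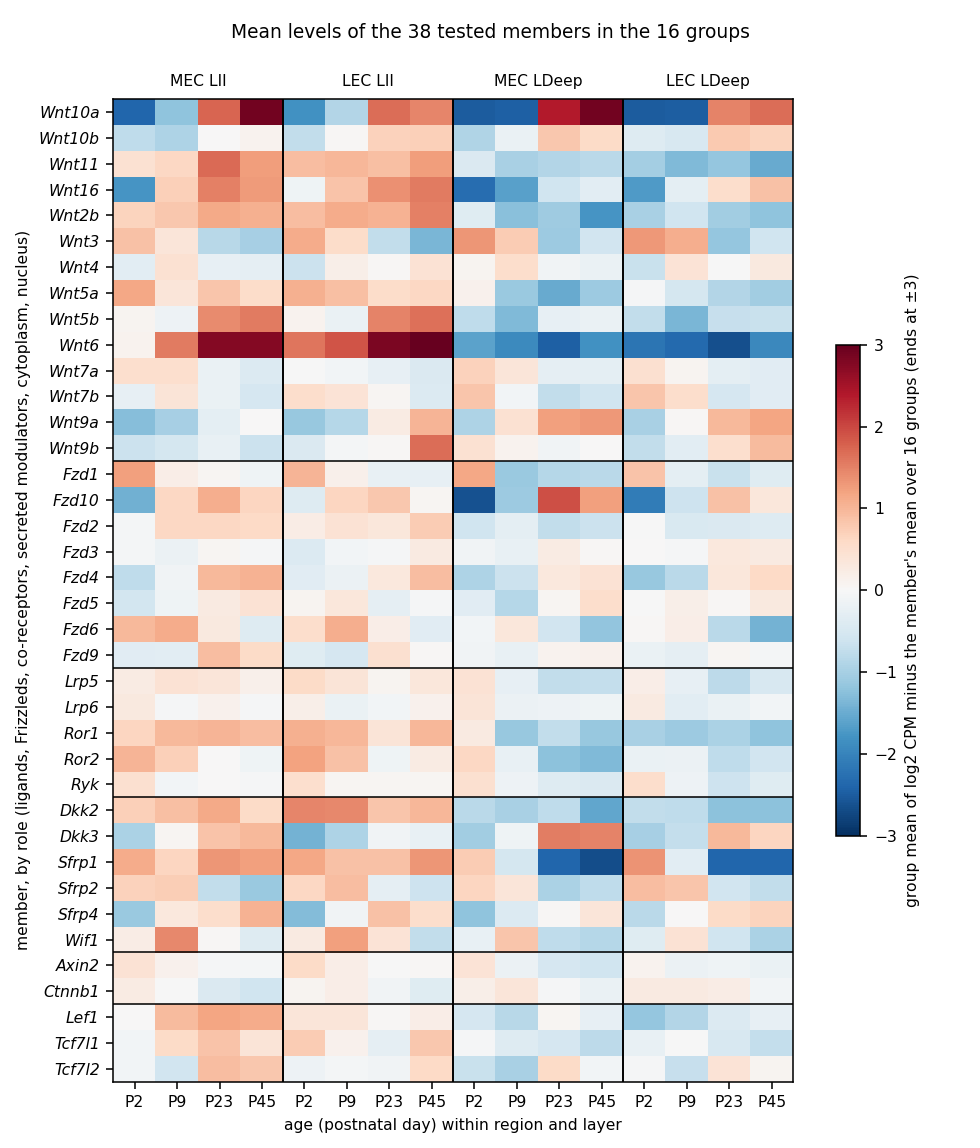
Mean log2 CPM of each tested member in the 16 groups of region, layer and age, minus the mean of that member over the groups (colour scale from -3 to 3 on the log2 scale), with lines between roles and between region and layer. Wnt10a, Dkk3 and Fzd10 turn from blue to red with age, Wnt3 and Sfrp2 from red to blue, Wnt6, Wnt11, Wnt2b and Dkk2 are red in LII columns and blue in LDeep columns, and Sfrp1 turns blue with age in LDeep alone.

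Among the ligands 7 were higher and 4 lower at the older ages. Wnt10a (chr9:82053581-82066047) had the largest age difference of any member. It was at 0 to 0.445 CPM in the 20 samples at P2 (10 counts in all) and 0 to 0.841 CPM in the 16 at P9 (35 counts). It was at 2.68 to 10.7 CPM in the 12 samples at P23 (median 5.49) and 2.15 to 15.4 CPM in the 16 at P45 (median 9.32). No younger sample reached any older one, and the LFC was 5.65 (SE 0.23, edgeR adjusted p = 2.35e-12). Most of the rise fell between P9 and P23 (LFC 4.45, adjusted p = 1.08e-08), after one of 1.94 from P2 to P9 (adjusted p = 0.00216), which was 1.16 (adjusted p = 0.161) over the 64 single samples.

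Wnt3 (chr10:91830709-91874836) went down. Its median was 6.69 CPM at P2 (range 1.6 to 8.24), 4.33 CPM at P9 (2.5 to 6.57), 1.25 CPM at P23 (0.386 to 3.05) and 1.31 CPM at P45 (0.448 to 2.62), an LFC of -2.01 (SE 0.14, edgeR adjusted p = 9.91e-10). Wnt9a rose from medians of 3.14 CPM at P2 and 4.82 CPM at P9 to 10.7 and 14.2 CPM at P23 and P45 (LFC 1.47, SE 0.13, adjusted p = 3.22e-08). The older and younger replicate sums did not overlap for either ligand. Wnt6 rose by an LFC of 1.42 (SE 0.27, adjusted p = 0.000169). Its LII medians were 5.52, 6.96, 14.4 and 22.6 CPM at the 4 ages, whereas its LDeep medians were 0.191, 0.124, 0.0575 and 0.197 CPM, but the change of its layer difference with age did not pass (2.35, SE 0.91, adjusted p = 0.101). In MEC LDeep samples alone its LFC was -1.47 (adjusted p = 0.274), where the library with 4.57 CPM is one of the P2 samples, and over the 64 single samples it was 0.44 (adjusted p = 0.474).

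The other ligands that rose were Wnt5b, Wnt9b, Wnt10b and Wnt16, with LFCs of 0.82 to 1.41. Wnt9b lost its call with voom and quantile scaling (LFC 0.65, adjusted p = 0.074) and had an LFC of -0.24 in MEC LDeep samples alone. Wnt7b and Wnt7a, the ligands that brain endothelial cells read through Reck and Adgra2, fell by LFCs of 0.92 (SE 0.1) and 0.69 (SE 0.06), and Wnt5a by 0.43 (SE 0.12). Wnt2b, Wnt4 and Wnt11 did not pass, with LFCs of 0.09, -0.07 and 0.34. Taken by region and layer, Wnt4 rose in LEC LII (LFC 0.4, adjusted p = 0.00891) and fell in MEC LDeep (LFC -0.45, adjusted p = 0.018). Wnt4, singled out after its values were seen, moved in both directions on the way, with an LFC of 0.77 from P2 to P9 (adjusted p = 2.63e-06) and -0.52 from P9 to P23 (adjusted p = 0.000327).

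The Frizzleds split into 4 that rose and 2 that fell. Fzd10 (chr12:31757407-31760604) had medians of 1.82, 6.66, 15.1 and 9.86 CPM at P2, P9, P23 and P45, and its samples ranged from 0.226 to 13.5 CPM at the younger and from 4.95 to 33.3 CPM at the older ages (LFC 1.7, SE 0.13, edgeR adjusted p = 4.09e-09). In LEC LII samples alone the LFC of Fzd10 was 0.24 (adjusted p = 0.216). Fzd4 had medians of 6.85, 7.75, 15.4 and 19.0 CPM (LFC 1.27, SE 0.13, adjusted p = 1.26e-07). The replicate sums of younger and older ages did not overlap for either. Fzd6 had medians of 9.72, 15.2, 7.42 and 4.44 CPM (LFC -1.12, SE 0.14, adjusted p = 1.68e-06), so that it was highest at P9. Fzd1 had medians of 71.3, 33.5, 26.2 and 26.8 CPM (LFC -0.86, SE 0.09, adjusted p = 1.57e-07), and its fall lay between P2 and P9 (LFC -1.31, adjusted p = 3.18e-07). Fzd9 and Fzd3 rose by 0.58 and 0.27, while Fzd2 (0.05) and Fzd5 (0.41) did not pass. Taken by region and layer, Fzd5 rose in MEC LDeep (LFC 1.2, adjusted p = 0.0174) and MEC LII (LFC 0.9, adjusted p = 0.025). It was called in neither layer of the LEC, and it had 438 counts over the 64 samples.

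Of the co-receptors, 4 of 5 fell and none rose. Ror2 had medians of 9.78, 6.25, 3.8 and 3.98 CPM at the 4 ages (LFC -1.04, SE 0.1, edgeR adjusted p = 9.76e-08) with no overlap of younger and older replicate sums. Ryk was at 42.0 to 54.1 CPM in each P2 sample and at 20.7 to 42.8 CPM at P45, an LFC of -0.43 (SE 0.05, adjusted p = 1.89e-06). Lrp5 fell by an LFC of 0.41 (SE 0.09) and Lrp6 by 0.12 (SE 0.05, adjusted p = 0.0269), a call that was lost in 6 of the 16 fits without 1 replicate number. Ror1 had an LFC of -0.25 (SE 0.16) and did not pass.

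The 6 tested secreted modulators all passed, 2 of them higher and 4 lower. Dkk3 (chr1:176940693-176983045) had medians of 91.5, 139.5, 381 and 366 CPM (LFC 1.65, SE 0.09, edgeR adjusted p = 9.41e-11), and Sfrp4 of 1.28, 3.21, 4.68 and 5.07 CPM (LFC 1.2, SE 0.14, adjusted p = 9.86e-07). Sfrp2 had medians of 9.23, 9.8, 3.56 and 3.08 CPM (LFC -1.54, SE 0.12, adjusted p = 3.1e-09), and at 2.5 to 5.14 CPM its P23 samples lay below each of its P2 and P9 samples. Wif1 had medians of 32.3, 70.6, 27.5 and 21.1 CPM (LFC -1.04, SE 0.15, adjusted p = 9.5e-06). It rose from P2 to P9 (LFC 0.93, adjusted p = 0.000715) and fell from P9 to P23 (LFC -1.24, adjusted p = 0.000225). The calls of Dkk2 (LFC -0.59, adjusted p = 0.0491) and Sfrp1 (LFC -0.4, adjusted p = 0.0333) were lost in 13 and 8 of the 16 fits without 1 replicate number.

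Inside the cell, Ctnnb1 had medians of 783, 793, 658 and 571 CPM (LFC -0.41, SE 0.04, edgeR adjusted p = 2.84e-07) and Axin2 of 31.9, 25.5, 23.2 and 22.4 CPM (LFC -0.39, SE 0.06, adjusted p = 1.62e-05), both without overlap of replicate sums. In LEC LDeep samples alone the LFC of Axin2 was -0.1 (adjusted p = 0.588). Tcf7l2 had medians of 2.33, 1.9, 4.43 and 3.74 CPM (LFC 0.88, SE 0.19, adjusted p = 0.000428). Lef1 had an LFC of 0.42 (SE 0.15, adjusted p = 0.0198), which was -0.28 (adjusted p = 0.23) in LEC LII samples alone and which did not pass without P23 replicate 2. Oligodendrocyte markers moved with age, 8 of 8 being higher at the older ages with sums of 34.4 to 698 CPM at P2 and P9 and 691 to 16316 CPM at P23 and P45. Markers of cycling cells fell in 5 of 5 cases, from 67.6 to 259 CPM down to 10.9 to 26.1 CPM. Neuron markers were higher at the older ages in 6 of 6 cases (915 to 3143 CPM before, 3627 to 5394 CPM after), microglia markers in 7 of 8 (57.7 to 254, then 264 to 431 CPM), astrocyte markers in 6 of 8 with 1 lower (662 to 3917, then 2453 to 5206 CPM) and mural markers in 5 of 8 with 2 lower (95.3 to 316, then 144 to 632 CPM). Meningeal markers were higher in 5 and lower in 4 of 16 cases, and endothelial markers higher in 4 and lower in 2 of 10. The part of these cells in the members' age differences was not tested.

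The steps between neighbouring ages located these changes. From P2 to P9, 19 of 38 members passed (8 higher, 11 lower), where 54% of all genes did. From P9 to P23, 18 passed (9 higher, 9 lower), where 55.8% of all genes did. Without the 4 libraries 19 passed in the first step, with Fzd6 gained (LFC 0.38, adjusted p = 0.0174) and Wnt7a lost (LFC -0.15, adjusted p = 0.151), and 21 in the second, with Sfrp4 (LFC 0.51, adjusted p = 0.0451), Wnt6 (LFC 1.02, adjusted p = 0.0364) and Wnt16 (LFC 0.75, adjusted p = 0.0103) gained. From P23 to P45, 0 members passed in edgeR, where 0.458% of all genes did. In that last step 6 members had an unadjusted p under 0.05, the lowest adjusted p was 0.199, and DESeq2 and limma voom also called 0 members.

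Whether the layer difference itself changed with age was tested as an interaction. It passed for 8 of 38 members, beside 8.8% of all genes. Sfrp1 had the largest change. In LII its medians were 66.4, 50.3, 68.9 and 91.7 CPM at P2, P9, P23 and P45. In LDeep they were 52.3, 21.5, 5.19 and 4.56 CPM. The layers overlapped at P2, where LDeep reached 113 CPM and LII 79.3 CPM. From P9 onwards the lowest LII value was above the highest LDeep value at each age, 15.6 against 8.19 CPM at P45. The layer LFC grew by 3.18 from the younger to the older ages (SE 0.26, edgeR adjusted p = 2.26e-13). Taken by region and layer, the age LFC of Sfrp1 was -2.67 in MEC LDeep (adjusted p = 1.7e-08) and -3.01 in LEC LDeep (adjusted p = 2.25e-09), beside 0.48 in MEC LII (adjusted p = 0.18) and 0.09 in LEC LII (adjusted p = 0.639).

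Fzd10 changed in the other direction. Its medians at P2 and P9 were 4.2 and 10.7 CPM in LII and 1.09 and 4.11 CPM in LDeep, whereas at P23 and P45 they were 13.3 and 9.17 CPM in LII and 19.1 and 12.7 CPM in LDeep (difference in layer LFC -1.95, SE 0.27, edgeR adjusted p = 3.87e-07). The medians over both regions thus changed order between P9 and P23. In the LEC the layers overlapped at P23. Its LII replicates 1 to 3 had 88, 65 and 62 counts of Fzd10 in libraries of 5966717, 6147534 and 5534992 counts. Its LDeep replicates had 81, 71 and 126 counts in libraries of 7456424, 7630684 and 7585009 counts. Wnt10a had a difference of -2.63 (SE 0.62, adjusted p = 0.00301). It rests on 4 counts in the 18 younger LDeep samples and 41 counts in the 18 younger LII samples, and without P2 replicate 2 it could not be called (adjusted p = 1), with 0 counts left in some P2 groups. Dkk3 had medians of 100.9 CPM in LII and 110.8 CPM in LDeep at the younger ages and of 279 and 486 CPM at the older ages (difference -0.71, SE 0.14, adjusted p = 0.000244).

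The other 4 changes were smaller. Fzd9 gained LII expression, with medians of 13.1 CPM in LII and 15.1 CPM in LDeep at the younger ages and 25.3 and 17.7 CPM at the older ages (difference 0.66, SE 0.13, edgeR adjusted p = 0.000196). Ryk was at medians of 42.4 CPM in LII and 45.4 CPM in LDeep before and 36.2 and 26.2 CPM after (difference 0.43, SE 0.08, adjusted p = 0.000227), and Lrp5 at 29.0 and 19.2 CPM before and 25.8 and 11.96 CPM after (difference 0.53, SE 0.15, adjusted p = 0.018). Ctnnb1 went from 753 and 823 CPM to 512 and 645 CPM (difference -0.21, SE 0.06, adjusted p = 0.03). The calls of Lrp5 and Ctnnb1 were lost in 6 and 3 of the 16 fits without 1 replicate number, and that of Ctnnb1 also without the 4 libraries (adjusted p = 0.0575).

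Fewer members differed between the regions, 6 of 38 (15.8%, 4 higher and 2 lower in the MEC), beside 15.4% of all genes. The share of members was thus close to that of all genes here too. Dkk3 differed most. It was at 78.3 to 639 CPM in the MEC (median 207) and 65.1 to 481 CPM in the LEC (median 122), an LFC of 0.68 (SE 0.07, edgeR adjusted p = 4.48e-11), with the MEC higher in 27 of 32 pairs. Lef1 was at medians of 4.6 CPM in the MEC and 3.31 CPM in the LEC (LFC 0.46, SE 0.15, adjusted p = 0.0213). Wnt7a had medians of 48.7 and 39.8 CPM (LFC 0.22, SE 0.05, adjusted p = 0.000329) and Fzd9 of 16.6 and 14.8 CPM (LFC 0.2, SE 0.06, adjusted p = 0.0212). The samples of the regions overlapped for each of these. The call of Lef1 was lost without P2 replicate 1 or P9 replicate 1, and that of Fzd9 without P9 replicate 3 or P23 replicate 3.

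Ctnnb1 was lower in the MEC, with medians of 689 and 764 CPM (LFC -0.12, SE 0.03, edgeR adjusted p = 0.00474), and so was Sfrp2, with medians of 6.15 and 8.21 CPM (LFC -0.26, SE 0.09, adjusted p = 0.043). The call of Sfrp2 was lost in 10 of the 16 fits without 1 replicate number. Wnt16, named here after its values were seen, had an LFC of -0.55 (adjusted p = 0.0614) and passed without the 4 libraries (LFC -0.61, adjusted p = 0.00211), as did Wnt7b. Oligodendrocyte markers were higher in the MEC in 3 of 8 cases, with sums of 34.4 to 16316 CPM in the MEC and 42.7 to 6999 CPM in the LEC. Precursor markers were higher in 2 of 5 cases and microglia markers lower in 2 of 8. The part of these cells in the region differences was not tested.

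The rest of the pathway was described with lists of genes that are no members. Of 73 such genes 55 could be tested between layers, and 15 of them were higher in LII and 20 lower, with a median LFC of -0.09, where 23.5% and 30.5% of all genes were. Among 9 genes of receptors and receptor control, 6 were higher and 1 lower. Rnf43, a ligase that removes Frizzleds from the surface, was higher by an LFC of 1.06 (SE 0.13, edgeR adjusted p = 1.37e-09), and Lrp4 by 0.85 (SE 0.09, adjusted p = 2.99e-12). Among 10 genes of secretion and the extracellular space, 4 were higher and 4 lower. Frzb, a relative of the Sfrp genes, and Wls, the carrier of Wnt proteins to the surface, were higher by 1.43 (SE 0.24) and 1.11 (SE 0.09), whereas the R-spondins Rspo1 and Rspo2, which enhance Wnt signals, were lower in LII by LFCs of -1.9 (SE 0.2) and -1.29 (SE 0.13).

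Among 17 cytoplasmic genes, such as the Dvl and Gsk3 genes, 1 was higher and 7 lower in LII. Among 12 nuclear genes 3 were higher and 4 lower, and among 7 genes of planar polarity 1 was higher and 4 lower. The nuclear co-repressor Tle4 had an LFC of -1.67 (SE 0.08) and Vangl1, a planar polarity protein, one of 0.93 (SE 0.06). Tle4 is also on the list of deep-layer markers used to check the labels, so its lower level in LII is no separate result. Of 10 testable known targets of beta-catenin signalling, 9 were higher in LII and Lgr5 was lower, with a median LFC of 0.49, where 23.5% of all genes were higher. The list also holds the members Axin2 and Lef1. Lgr5, Rnf43, Notum and Nkd1 are counted in the lists above as well. Sp5 had the largest LFC of the targets, at 2.03 (edgeR adjusted p = 2.29e-06).

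With age, 21 of the 55 genes outside the members were higher and 25 lower, where 38.3% and 39% of all genes were. The extracellular list had 8 higher and 2 lower of 10, the receptor list 5 higher and 1 lower of 9, the cytoplasmic list 4 higher and 10 lower of 17, the nuclear list 1 higher and 8 lower of 12 and the planar polarity list 3 higher and 4 lower of 7. Rspo1 rose by an LFC of 3.54 (SE 0.26, edgeR adjusted p = 2.26e-09) and Dact2, which binds Dvl proteins, by 2.59 (SE 0.08). Sostdc1, an antagonist of Lrp5 and Lrp6, fell by 3.59 (SE 0.45) and Vangl2 by 2.39 (SE 0.105). The targets split into 6 that were higher, among them Rnf43 (1.22) and Lgr5 (1.0), and 4 that were lower, Myc (-2.96), Sp5 (-1.62), Ccnd1 (-0.55) and Axin2 (-0.39). Between the regions 7 of the 55 genes were higher and 2 lower in the MEC, where 15.4% of all genes were called, led by Rspo1 (LFC 1.25, SE 0.2, adjusted p = 4.67e-06).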

How the data were processed

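Read counts per gene were deposited by the authors for each of the 64 samples. Per their methods and processing notes, reads were trimmed with Trimmomatic 0.33, aligned to rn6 with STAR 2.4.0 and counted over RefSeq exons with featureCounts, using strand. The counts were used as deposited. Genes with low counts were removed with filterByExpr, libraries were scaled by TMM, and edgeR 4.0.16 (R 4.3.3) fitted a quasi-likelihood model over 16 groups of region, layer and age, with equal weight to each group in the layer and region contrasts. For ages, the counts of the 4 samples that share an age and a replicate number were summed. P-values were BH adjusted over all genes tested, with a threshold of 0.05. CPM used TMM library sizes. Depth was 3894334 to 11439143 counts per sample, and intervals and floors cover counting error only. The 100 pairs of replicates held no identical tables.

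The members and lists were chosen with earlier results of these data known. For each role and contrast, at most 4 members past the threshold, ordered by absolute LFC, were given in full, and others by range and count. Alternatives were DESeq2 1.42.0, limma 3.58.1 voom with quantile scaling, RLE size factors, no filter, a replicate block, single regions and layers, and leaving out each replicate number. The fit without 4 libraries that stand apart was chosen after seeing the data. Code was tested on simulated data.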

Additional observations from a re-analysis of the deposited data

Results flagged for a closer look

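In 23 of 288 tests of a member within 1 layer and age over both regions, 1 sample lay far from the others by Dixon's criterion, which chance alone meets in about 1 group in 20. The library labelled MEC LDeep P2 replicate 1 was high for Wnt6 (4.57 CPM, the others at most 0.416), Dkk2 (7.13, at most 1.09), Ror1 (11.0, at most 2.94), Lef1 (7.42, at most 2.71) and Wnt2b (3.0, at most 0.97). The library labelled MEC LII P2 replicate 1 was low for Wnt7b (3.4 CPM, the others at least 36.7) and Wnt3 (1.6, at least 4.89) and high for Fzd3 (152, at most 78.4) and Sfrp2 (16.5, at most 9.95). MEC LII P2 replicate 3 was low for Sfrp1 (28.5 CPM, the others at least 57.1) and Fzd4 (3.88, at least 6.6). These are 3 of the 4 libraries whose marker genes stood apart.

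LEC LDeep P45 replicate 4 was high for Fzd4 (32.8 CPM, the others at most 18.0), Lrp5 (26.3, at most 15.1) and Axin2 (41.5, at most 22.0) and low for Ror1 (0.229, at least 0.945). Single samples apart from their groups were Tcf7l2 in LEC LDeep P2 replicate 3 (8.76 CPM), Lrp6 in MEC LDeep P2 replicate 4 (148), Fzd1 in MEC LII P23 replicate 2 (45.4), Wnt9b in MEC LDeep P23 replicate 1 (0.278), Fzd9 in MEC LDeep P45 replicate 1 (26.3), Wnt2b in MEC LII P45 replicate 4 (0.907), Sfrp4 in LEC LII P45 replicate 4 (2.24) and Wif1 in LEC LII P45 replicate 1 (13.6).

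The layer LFC differed between the older and younger ages, by an edgeR interaction test, for Sfrp1 (3.18), Fzd9 (0.66), Lrp5 (0.53), Ryk (0.43), Ctnnb1 (-0.21), Dkk3 (-0.71), Fzd10 (-1.95) and Wnt10a (-2.63).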

How the results depend on the processing

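Of 3688 values recomputed for called members, 3497 kept their direction and side of the threshold, 185 kept the direction but lost the call and 6 turned direction. The 6 were Tcf7l2 between layers with voom and quantile scaling (-0.0033), and, between ages, Lef1 in LEC LII alone (-0.278), Wnt6 (-1.47) and Wnt9b (-0.244) in MEC LDeep alone, and Sfrp1 in MEC LII alone (0.481) and LEC LII alone (0.091). Their cause was not tested. With voom and quantile scaling 8 members were lower in LII. Members lower in the MEC were 1 with no filter and 4 without the 4 libraries. Members lower at the older ages were 10 in MEC LII alone. Without the 4 libraries 1 member differed between regions in its layer contrast.

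Without 1 replicate number, the layer calls ranged from 24 to 29 (21 to 25 higher, 3 to 4 lower), the age calls from 27 to 31 (13 to 15 higher, 13 to 16 lower), the region calls from 4 to 7 (3 to 4 higher, 1 to 4 lower) and the changes of the layer contrast with age from 7 to 9.

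The labels do not say that a replicate number marks an animal. In their deviations from the group means, same-numbered samples correlated at a mean of 0.133 between layers, 0.126 between regions and 0.143 across both (32 pairs each), above the means of -0.0448, -0.0391 and -0.0452 for other numbers (100 pairs each). The numbers may therefore mark a shared source, but single same-numbered pairs went down to -0.259, a pairing was not established, and the layer and region tests used none. The fit with the replicate block gave 28 layer calls, 7 region calls and 1 difference between regions in the layer contrast (Dkk3, adjusted p = 0.0427), and it lost no called member. For ages, the fit with no replicate block over 64 samples gave 31 calls, and 3 from P23 to P45. Low counts limit Wnt10a at P2 and P9 and the 8 untested members. They also limit other members, such as Wnt6 and Wnt11 in LDeep. Over the 64 samples Wnt10b had 377 counts, Fzd5 438, Wnt11 485 and Wnt9b 591.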
